A study of Homo sapiens with 6 samples.

Results

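The 10 genes described here belong to the Notch pathway: the receptors NOTCH1, NOTCH2 and NOTCH3, the ligands JAG1, JAG2 and DLL1, and the target genes HES1, HES4, HEY1 and NRARP. They were taken by symbol from the count and FPKM tables, and all 10 of them stood among the 16779 genes listed. Expression was measured by RNA-seq in 6 libraries labelled A549, a cell line derived from a human lung adenocarcinoma. Of these, 3 carried the label RN7SK-KO, for knockout of RN7SK, the gene of the 7SK noncoding RNA that holds the elongation factor P-TEFb inactive, and 3 were labelled control with a wild-type genotype. No drug, time course or further allele is named for either group. The labels do not say how the knockout was made, whether it was 1 clone, or whether the replicates were separate cultures, so the p-values measure only the spread between these samples, which may be technical.

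Notch receptors are cell-surface proteins that are activated by ligands of the Jagged and Delta-like families on a neighbouring cell. Ligand binding exposes the receptor to cleavage by ADAM proteases and then by gamma-secretase, and the freed intracellular domain enters the nucleus, where it joins the DNA-binding protein RBPJ and a Mastermind-like coactivator. The best known targets are repressors of the HES and HEY families and NRARP, an inhibitor that acts back on the intracellular domain. In the airway the pathway is known for its part in the choice between secretory, ciliated, basal and neuroendocrine fates.

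Total counts were 16018260 to 18488790 in the RN7SK-KO libraries and 18612303 to 19357144 in the control libraries. Within the groups, the chi-square per degree of freedom between libraries was 1.729 to 1.997 in RN7SK-KO; in control it was 2.91 between replicates 1 and 3, but 6.29 and 8.04 where replicate 2 was one of the pair. No row was found for RN7SK, so the targeted RNA does not check the labels. CDKN2A had 0, 1 and 2 counts in the RN7SK-KO libraries and 963, 1005 and 923 counts in the control libraries, and CDKN2B had 0, 1 and 0 counts against 216, 241 and 238. A549 is known to have lost both genes, so the control libraries went against their cell line label, and every direction below compares the libraries labelled RN7SK-KO with those labelled control. The gene lengths behind the FPKM also differed between the groups. Of 14582 genes with a recoverable length in both, 4716 (32.3%) matched within 1%. What these differences contribute to the Notch genes cannot be told apart from the knockout.

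Of the 10 Notch genes, 5 were higher and 4 lower in the RN7SK-KO libraries at an adjusted p under 0.05, and HES1 did not pass. Receptors, ligands and targets each held genes of both directions. Most genes in these tables moved: 85% of the 12929 genes tested passed the same threshold, with 42% higher and 43% lower, so a count of 9 in 10 is near the background. A fold change of at least 2 together with a passed test was reached by 6 of the 10 Notch genes, against 33.6% of all genes tested. The libraries of the groups did not overlap in CPM (counts scaled to library size) for 8 of the 10, against 85.6% of all genes tested. The median absolute log2 fold change was 1.15 over the 10 genes and 0.65 over all tested genes, while the median signed value was 0.50 over the 10 genes and -0.007 over all. HEY1 passed the low-count filter only through the RN7SK-KO libraries and DLL1 through these and 1 control library, so these shares carry no test.

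**Figure D1:**
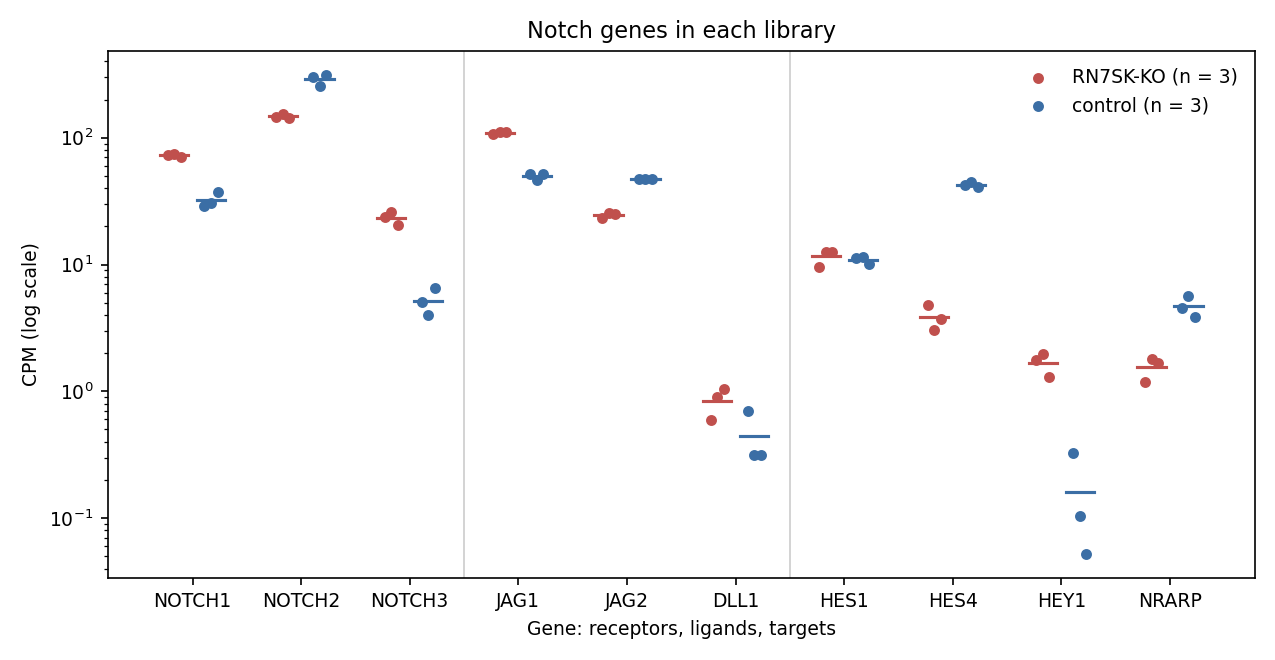
Expression of the 10 Notch genes in each library, in CPM on a log axis, with RN7SK-KO (n = 3) to the left of control (n = 3) for each gene; points are libraries and lines are group means. The groups stand apart for every gene but DLL1 and HES1; NOTCH1, NOTCH3, JAG1 and HEY1 are higher and NOTCH2, JAG2, HES4 and NRARP lower in RN7SK-KO.

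Among the receptors, NOTCH1 and NOTCH3 were higher and NOTCH2 was lower in RN7SK-KO. NOTCH1 (GRCh38, chr9:136494433-136546048, minus strand) encodes the receptor best known from T-cell leukaemia, where it is an oncogene, and from squamous epithelia, where it acts as a tumour suppressor. It had 73.05, 74.3 and 70.58 CPM in the RN7SK-KO libraries, against 28.94, 30.77 and 37.57 CPM in the control libraries. Each RN7SK-KO library lay well above the highest control library. NOTCH1 was 2.24-fold higher in RN7SK-KO (log2 fold change 1.16 ± 0.071 SE, n = 3 each, edgeR adjusted p = 2.65e-15). In bulk RNA of this kind, more or fewer expressing cells and more or less RNA per cell cannot be told apart.

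NOTCH3 (chr19:15159038-15200995, minus strand), a receptor best known from vascular smooth muscle and pericytes, changed most among the receptors. It had 23.5, 26.0 and 20.5 CPM in RN7SK-KO libraries, against 5.02, 4.03 and 6.48 CPM in control libraries. The groups were far apart, with a spread of 2.79 CPM (SD) in RN7SK-KO and 1.23 CPM in control. NOTCH3 was 4.51-fold higher in RN7SK-KO, a log2 fold change of 2.17 ± 0.127 SE (edgeR adjusted p = 2.4e-15).

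NOTCH2 (chr1:119911553-120069662, minus strand), the receptor mutated in Hajdu-Cheney syndrome, went the other way. It had 146.3, 152.9 and 142.5 CPM in RN7SK-KO libraries, against 301.9, 255.5 and 314.0 CPM in control libraries. The lowest control library still held far more than the highest RN7SK-KO library. The log2 fold change was -0.98 ± 0.062 SE, so control was 1.97-fold higher (edgeR adjusted p = 2.79e-11). Without control replicate 2, which was the lowest control library and stood apart as described above, it was -1.07. The human NOTCH2NL copies share near-identical sequence with the start of NOTCH2 and were not analysed here, so how reads from them were counted is uncertain.

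The share of each receptor in the receptor total changed with these shifts. FPKM, which divide by gene length, allow the receptors to be set beside each other, and NOTCH1, NOTCH2 and NOTCH3 together came to 22.7 ± 0.836 FPKM in RN7SK-KO and 27.9 ± 2.95 FPKM in control (SD, n = 3 each). NOTCH2 made up 54.7 ± 0.468% of this sum in RN7SK-KO and 85.6 ± 1.43% in control. NOTCH1 made up 33.4 ± 0.570% in RN7SK-KO and 12.2 ± 1.34% in control. NOTCH3 made up 11.9 ± 0.928% in RN7SK-KO and 2.22 ± 0.306% in control. NOTCH2 was the highest of the 3 in every library. Counts of NOTCH2 per count of NOTCH1 were 2.003, 2.058 and 2.019 in RN7SK-KO libraries, against 10.4, 8.30 and 8.36 in control libraries. The ratio did not overlap between groups, and the exact two-sided permutation test gave p = 0.1, the smallest that 3 against 3 libraries allow. It is 1 of 3 ratios taken on 2 scales after their values were seen, and its Benjamini-Hochberg adjusted p is also 0.1.

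Among the ligands, JAG1 was higher and JAG2 lower in RN7SK-KO, while DLL1 was near the limit of detection. JAG1 (chr20:10637684-10673999, minus strand), the ligand gene mutated in Alagille syndrome, had 107.2, 110.1 and 110.3 CPM in RN7SK-KO libraries, against 51.7, 46.2 and 51.5 CPM in control libraries. All 3 RN7SK-KO libraries lay at about the same level, above all 3 control libraries. JAG1 was 2.19-fold higher in RN7SK-KO (log2 fold change 1.13 ± 0.055 SE, edgeR adjusted p = 2.05e-19). JAG2 (chr14:105140995-105168776, minus strand), the second Jagged ligand, had 23.2, 25.3 and 25.1 CPM in RN7SK-KO libraries, against 47.1 CPM in each of the 3 control libraries. No library of one group reached the level of the other. The log2 fold change of JAG2 was -0.94 ± 0.065 SE, with control 1.92-fold higher (edgeR adjusted p = 4.44e-15). In GENCODE v29, exons of JAG1 overlap an antisense gene and exons of JAG2 overlap another gene on the same strand, and the strand setting of the counting is not given, so some reads of either could be shared.

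DLL1 (chr6:170282206-170291078, minus strand), a Delta-like ligand, had 11, 15 and 17 counts in the RN7SK-KO libraries and 13, 6 and 6 counts in the control libraries. In CPM these were 0.591, 0.896 and 1.05 in RN7SK-KO, against 0.702, 0.314 and 0.314 in control. The groups overlapped, since 1 control library exceeded the lowest RN7SK-KO library. The log2 fold change was 0.91 ± 0.418 SE with an edgeR adjusted p of 0.043. DESeq2 gave 0.94 with an adjusted p of 0.106, and the call was lost when RN7SK-KO replicate 2 or 3 or control replicate 2 or 3 was left out (0.71 to 1.38 over all libraries left out in turn). DLL1 also overlaps FAM120B on the opposite strand.

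On the FPKM scale the ligands together came to 22.7 ± 0.607 in RN7SK-KO and 16.1 ± 0.573 in control (SD, n = 3 each). JAG1 was 80.4 ± 0.666% of the sum in RN7SK-KO and 50.3 ± 1.502% in control. JAG2 was 18.6 ± 0.437% in RN7SK-KO and 48.9 ± 1.69% in control, where the libraries of JAG1 and JAG2 overlapped. DLL1 was 0.972 ± 0.248% in RN7SK-KO and 0.804 ± 0.388% in control. Within each library, JAG1 had 4.62, 4.36 and 4.39 counts per JAG2 count in RN7SK-KO, against 1.096, 0.980 and 1.093 in control. The exact permutation p was again 0.1, the smallest possible here.

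Among the targets, HES4 and NRARP were lower, HEY1 was higher, and HES1 did not pass the test. HES4 (chr1:998964-1000097, minus strand), a repressor of the hairy and enhancer of split family that mice lack, had 89, 51 and 60 counts in the RN7SK-KO libraries, against 789, 854 and 777 counts in the control libraries. These were 4.78, 3.05 and 3.69 CPM in RN7SK-KO, against 42.6, 44.7 and 40.6 CPM in control. All 3 RN7SK-KO libraries lay far below the lowest control library. The log2 fold change of HES4 was -3.46 ± 0.105 SE, with control 11.0-fold higher (edgeR adjusted p = 4.13e-25). The lengths behind its FPKM were 965 bases in RN7SK-KO and 2227 bases in control, and the control length exceeds the whole RefSeq span of the gene, 1134 bases. With those lengths as an offset the log2 fold change was -2.25, and on log2(FPKM + 0.1) it was -2.23. The direction and the call held on both scales, but a longer gene model also takes in more reads, and how much of the difference in counts came from it was not tested.

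HES1 (chr3:194136148-194138732, plus strand), the classic Notch target and a repressor of neural and endocrine differentiation, had 179, 210 and 206 counts in RN7SK-KO libraries, against 208, 219 and 194 counts in control libraries. In CPM it had 9.62, 12.5 and 12.7 in RN7SK-KO, against 11.2, 11.5 and 10.1 in control. The groups overlapped throughout. The log2 fold change was 0.08 ± 0.114 SE (edgeR adjusted p = 0.513), and it was -0.028 with gene lengths as an offset. HES4 counts per HES1 count were 0.497, 0.243 and 0.291 in RN7SK-KO libraries, against 3.79, 3.90 and 4.01 in control libraries, with an exact permutation p of 0.1.

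The promoters of HES1 and HES4 are shown because both genes are known as Notch targets, which RBPJ serves, and HES4 was lower in RN7SK-KO while HES1 did not pass the test. TGGGAA is part of sites that RBPJ binds, and it stands in capitals in both windows. Forms of the RBPJ site without TGGGAA were not searched for. The windows run from 250 bases before to 50 bases after the start of the gene in RefSeq (GRCh38.p14), 5′ to 3′ on the strand of the gene, at chr3:194135898-194136197 for HES1 and chr1:1000048-1000347 for HES4.
HES1: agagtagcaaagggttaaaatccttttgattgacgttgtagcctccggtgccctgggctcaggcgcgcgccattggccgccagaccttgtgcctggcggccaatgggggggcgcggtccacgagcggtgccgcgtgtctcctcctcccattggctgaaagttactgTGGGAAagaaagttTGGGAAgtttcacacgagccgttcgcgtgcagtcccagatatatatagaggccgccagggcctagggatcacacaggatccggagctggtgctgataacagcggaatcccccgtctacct
HES4: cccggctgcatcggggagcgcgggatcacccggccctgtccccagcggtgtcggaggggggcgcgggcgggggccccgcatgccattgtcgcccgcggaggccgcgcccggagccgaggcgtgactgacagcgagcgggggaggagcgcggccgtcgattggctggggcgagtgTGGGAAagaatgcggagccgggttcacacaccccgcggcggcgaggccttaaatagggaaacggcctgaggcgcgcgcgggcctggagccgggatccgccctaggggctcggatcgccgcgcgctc
The HES1 window holds TGGGAA at positions 167 and 181, counted from 1 at the 5′ end, both on the strand of the gene, and the HES4 window holds it at position 175. Of 35116 promoters of the same length, 24.0% hold TGGGAA on either strand at least once and 3.80% hold it 2 or more times. The longer form GTGGGAA, which contains TGGGAA, occurs once in each of these promoters and in 6.25% of all. The longest run common to both windows is tgtgggaaagaa, 12 bases around the first HES1 match and the HES4 match, and 8 of the 35116 promoters hold it. The N-box CACNAG, a sequence that HES proteins bind, occurs 4 times in the HES1 window, 0 times in the HES4 window, and in 38.0% of all promoters. Such matches describe the letters in these windows and say nothing of binding in these cells.

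NRARP (chr9:137299631-137302271, minus strand), the feedback inhibitor, had 22, 30 and 27 counts in RN7SK-KO libraries, against 84, 108 and 74 counts in control libraries. Its 1.18, 1.79 and 1.66 CPM in RN7SK-KO stood below the 4.54, 5.65 and 3.87 CPM in control without overlap. The log2 fold change was -1.61 ± 0.215 SE, with control 3.05-fold higher (edgeR adjusted p = 2.95e-08). The ratio of the summed counts was 0.327, with a 95% exact counting interval of 0.251 to 0.421. Of the other promoters in the same table, those of NRARP, NOTCH1, NOTCH2, NOTCH3, JAG1 and JAG2 hold no TGGGAA. RBPJ sites of another form were not searched for in these either. The N-box occurs 2 times in the NOTCH1 promoter, once each in those of NOTCH2, NOTCH3 and NRARP, and not in those of JAG1 and JAG2.

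HEY1 (chr8:79764010-79767767, minus strand), a repressor known from vascular and cardiac development, had 33, 33 and 21 counts in RN7SK-KO libraries, against 6, 2 and 1 counts in control libraries. The 1.77, 1.97 and 1.29 CPM in RN7SK-KO lay above the 0.324, 0.105 and 0.0523 CPM in control in every library. HEY1 was 10.2-fold higher in RN7SK-KO, a log2 fold change of 3.35 ± 0.448 SE. Since 3 RN7SK-KO and 0 control libraries reached the filter's cutoff of 0.539 CPM, it entered the test only through the group where it was high, and its edgeR call (adjusted p = 2.76e-08) is given as a description. The summed counts were 87 in RN7SK-KO and 9 in control, a ratio of 10.6 with a 95% exact counting interval of 5.35 to 24.0. The size rests on few control reads: the log2 fold change was 4.30 without control replicate 1 and 2.94 without control replicate 3. On log2(FPKM + 0.1), which understates changes of low genes, it was 2.30.

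**Figure D2:**
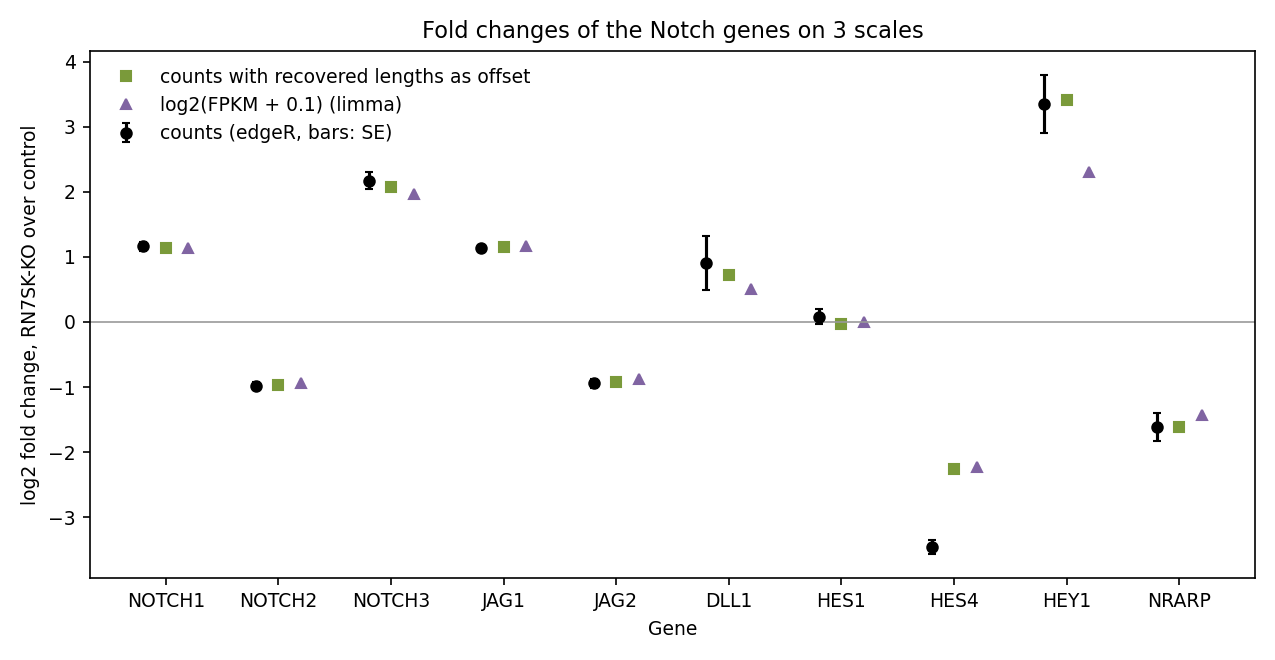
Log2 fold change of each Notch gene, RN7SK-KO over control (n = 3 each), from counts (circles, bars are SE), from counts with the recovered gene lengths as an offset (squares) and on log2(FPKM + 0.1) (triangles). HES4 moves most between scales, at -3.46, -2.25 and -2.23, and HES1 stays beside 0 on each.

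The 4 targets together came to 12.5 ± 0.451 FPKM in RN7SK-KO and 27.7 ± 1.71 FPKM in control (SD, n = 3 each). HES1 was 58.3 ± 7.29% of this sum in RN7SK-KO and 26.3 ± 0.446% in control. HES4 was 31.7 ± 7.99% in RN7SK-KO and 67.2 ± 0.975% in control. The sums and shares of the targets rest on the unlike HES4 lengths given above. Thus HES1 was the highest target in all 3 RN7SK-KO libraries, and HES4 was the highest in all 3 control libraries. HEY1 was 5.38 ± 1.22% of the sum in RN7SK-KO and 0.216 ± 0.194% in control, and NRARP was 4.63 ± 0.881% in RN7SK-KO and 6.24 ± 0.834% in control.

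**Figure D3:**
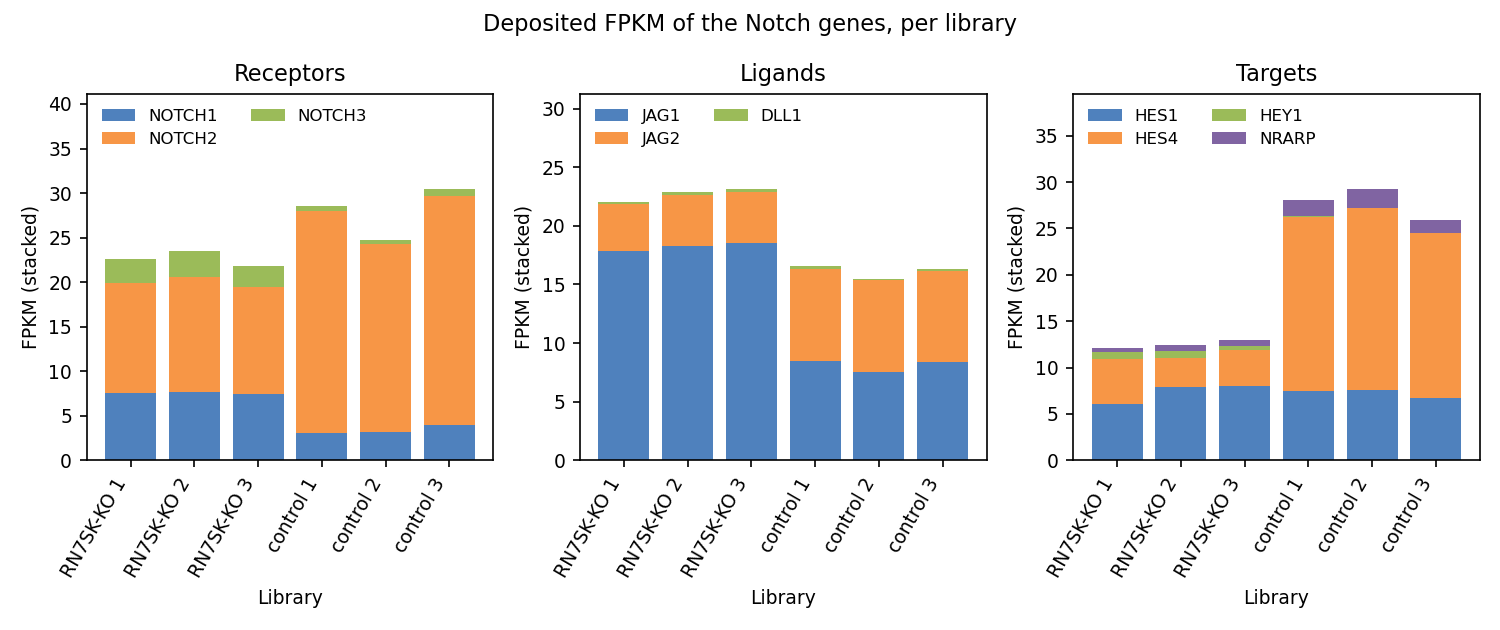
FPKM of the Notch receptors, ligands and targets stacked per library, 3 RN7SK-KO to the left of 3 control in each panel. NOTCH2 makes up 54.7% of the receptor sum in RN7SK-KO and 85.6% in control, JAG1 80.4% and 50.3% of the ligand sum, and HES4 31.7% and 67.2% of the target sum.

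Ordered by FPKM per group, JAG1 was the highest Notch gene in RN7SK-KO at 18.2 ± 0.345, followed by NOTCH2 at 12.4 ± 0.384. NOTCH1 at 7.57 ± 0.155 and HES1 at 7.32 ± 1.103 overlapped in their libraries, as did JAG2 at 4.22 ± 0.206 and HES4 at 3.95 ± 0.901. NOTCH3 followed at 2.69 ± 0.308, then HEY1 at 0.671 ± 0.136 and NRARP at 0.581 ± 0.121, which overlapped, and DLL1 was lowest at 0.221 ± 0.0616 FPKM. The control libraries had another order. NOTCH2 was highest at 23.9 ± 2.55 FPKM and HES4 second at 18.6 ± 0.907, and JAG1 at 8.10 ± 0.518 overlapped both JAG2 at 7.86 ± 0.0306 and HES1 at 7.30 ± 0.484. The control FPKM of HES4 divide by 2227 bases, more than its RefSeq span, so its rank in control depends on that length. NOTCH1 at 3.39 ± 0.467, NRARP at 1.74 ± 0.335 and NOTCH3 at 0.625 ± 0.148 came next in control, without overlap, above DLL1 at 0.130 ± 0.0664 and HEY1 at 0.0607 ± 0.0547 FPKM, which overlapped. Against all listed genes, JAG1 ranked at the 79.6 to 80.1 percentile of FPKM in RN7SK-KO libraries and the 62.9 to 64.8 percentile in control libraries. HES4 ranked at the 47.7 to 54.8 percentile in RN7SK-KO libraries and the 79.3 to 80.9 percentile in control libraries.

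The wider pathway was read from a list of 78 further genes, of which 73 were tested. Of these, 34 were higher and 27 lower in RN7SK-KO and 12 did not pass, so 83.6% passed, against 85% of all genes tested. Their median log2 fold change was 0.0069, against -0.007 over all genes, and the median absolute value was 0.51, against 0.65. Both the share and the sizes were near or below those of all genes. DLL4, HES3 and NEURL1 were too low to test, and HES5 and DLK1 were not analysed here.

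The remaining receptor, NOTCH4, known from endothelium, had 0.724 ± 0.225 CPM in RN7SK-KO and 0.316 ± 0.227 CPM in control (SD, n = 3 each), a log2 fold change of 1.16 with an edgeR adjusted p of 0.0245. That call was lost with DESeq2 (adjusted p = 0.0701) and without RN7SK-KO replicate 3, control replicate 1 or control replicate 3, with 0.83 to 1.91 over all libraries left out in turn. Of the other ligands tested, 2 were higher and 1 lower. DLL3, a ligand that inhibits Notch within the same cell and marks neuroendocrine tumours, had 5.52 ± 0.867 CPM in RN7SK-KO and 3.08 ± 0.470 CPM in control. DNER was 0.42 higher in RN7SK-KO on the log2 scale, and DLK2 lower by a log2 fold change of -1.86. DLL4, the endothelial Delta-like ligand, was at 0.486 CPM in RN7SK-KO and 0.319 CPM in control.

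The other HES and HEY genes also split in direction. HEYL, a HEY family repressor, had 9.91 ± 1.59 CPM in RN7SK-KO and 1.42 ± 0.219 CPM in control, 6.90-fold higher (log2 fold change 2.79, edgeR adjusted p = 6.65e-16). HES2 was also higher, with 1.39 ± 0.4999 CPM in RN7SK-KO and 0.193 ± 0.197 CPM in control, a log2 fold change of 2.79 that ran to 3.996 without control replicate 2 and to 2.34 without control replicate 3. HES6, which counteracts HES1 in mouse neural differentiation, was lower, with 6.45 ± 1.19 CPM in RN7SK-KO and 15.4 ± 1.098 CPM in control. HEY2, the paralog of HEY1 in heart and vessels, was lower as well, with 0.322 ± 0.151 CPM in RN7SK-KO and 1.40 ± 0.519 CPM in control. HES2 reached the filter's cutoff in 3 RN7SK-KO and 0 control libraries, and HEY2 in 0 RN7SK-KO and 3 control libraries, so each entered the test only through the group where it was high.

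Of the 9 genes of receptor cleavage, 4 were higher and 3 lower. ADAM17, a protease that can cut Notch at the surface, had 121 ± 1.29 CPM in RN7SK-KO and 47.7 ± 3.26 CPM in control, a log2 fold change of 1.34 (edgeR adjusted p = 1.68e-21). ADAM10, the main protease of ligand-induced cleavage, had 127.3 ± 4.14 CPM in RN7SK-KO and 154.9 ± 1.42 CPM in control, a log2 fold change of -0.28. With the gene lengths as an offset, ADAM10 was at -1.41. NCSTN, the gamma-secretase subunit that receives the substrate, was lower in RN7SK-KO at a log2 fold change of -0.36. Such an offset moved 5 of the 73 genes by more than 1.5-fold, among them ADAM10, MIB1, FBXW7 and ID1, of which FBXW7 and ID1 are named here after their values were seen.

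Among the 7 genes that glycosylate Notch, 1 was higher and 4 were lower in RN7SK-KO. POFUT1, which adds the O-fucose that ligand binding needs, was at 126.5 CPM in RN7SK-KO and 171.6 CPM in control, a log2 fold change of -0.44. The xylosyltransferases went opposite ways: GXYLT1 was lower with a log2 fold change of -1.27, and XXYLT1 higher with 1.06. LFNG, the Lunatic fringe enzyme that favours Delta-like over Jagged ligands, was at 16.1 CPM in RN7SK-KO and 19.4 CPM in control (log2 fold change -0.26, edgeR adjusted p = 0.00507), a call that was lost under upper-quartile scaling.

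In the nuclear complex, RBPJ, the DNA-binding partner of all Notch receptors, was lower at 40.4 ± 0.552 CPM in RN7SK-KO and 53.8 ± 2.57 CPM in control (log2 fold change -0.41, edgeR adjusted p = 1.5e-07). With gene lengths as an offset, RBPJ was at -0.20. MAML3, a Mastermind-like coactivator, was 7.73-fold higher, with 24.6 ± 3.13 CPM in RN7SK-KO and 3.18 ± 0.919 CPM in control. The acetyltransferases KAT2A and KAT2B were both 0.60 higher on the log2 scale. Of the 14 corepressor genes, 5 were higher and 6 lower: SPEN, which RBPJ recruits in the absence of Notch, was at -0.98, and TLE1, a Groucho-type partner of HES proteins, was at 1.60 in log2 fold change.

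Of the 15 tested genes of ubiquitination and endocytosis, 8 were higher and 6 lower. MIB1, the ligase that lets ligand-bearing cells pull on Notch, had 50.7 ± 2.74 CPM in RN7SK-KO and 124.7 ± 10.9 CPM in control, a log2 fold change of -1.30, or -0.68 with gene lengths as an offset. ITCH, a ligase that targets Notch for degradation, was 3.71-fold lower, with 61.1 ± 1.38 CPM in RN7SK-KO and 226.8 ± 2.97 CPM in control (edgeR adjusted p = 1.35e-27). The Deltex genes DTX1, DTX2 and DTX4 were higher, at log2 fold changes of 3.41, 1.84 and 2.33. DTX1 had 12, 13 and 17 counts in RN7SK-KO libraries and 3, 0 and 1 counts in control libraries, reached the filter's cutoff in 0 of the control libraries, and was at 4.63 without control replicate 1. NUMB, an endocytic inhibitor of Notch, was at 89.3 CPM in RN7SK-KO and 99.8 CPM in control (log2 fold change -0.16, edgeR adjusted p = 0.00413), a call that was lost under upper-quartile scaling. Among 10 further genes described as Notch targets in other tissues, 6 were higher and 3 lower; ID2 and ID3, which block basic helix-loop-helix factors, were at 3.48 and 1.88 in log2 fold change.

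**Figure D4:**
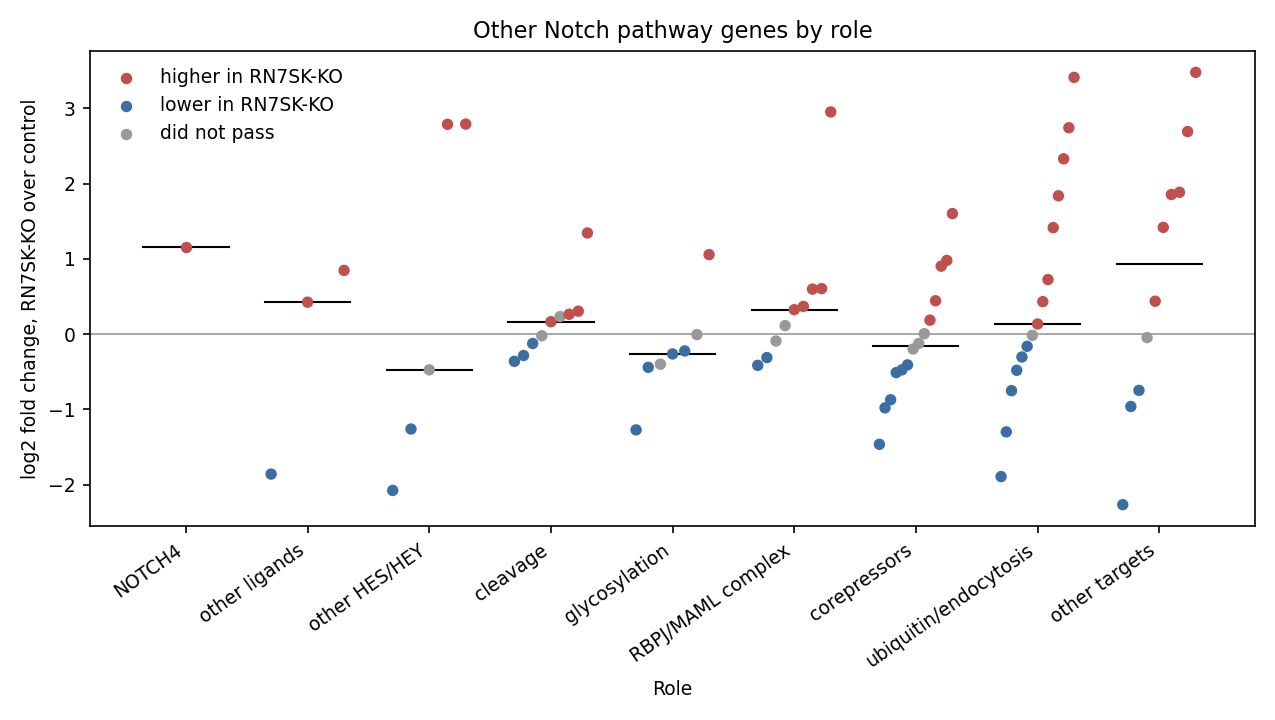
Log2 fold change, RN7SK-KO over control (n = 3 each), of the 73 tested genes of the wider Notch pathway grouped by role; red points were higher and blue points lower at an adjusted p under 0.05, grey points did not pass, and lines are group medians. Each role with more than 1 gene holds changes of both signs, and 34 genes were higher and 27 lower.

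Marker genes of other cell types were also read, since several Notch genes are expressed in such cells. Every library is labelled as the same cell line, so the sums give levels of marker genes, not amounts of a cell type. Of 10 neuroendocrine markers 5 were tested, 4 higher and 1 lower, and the list summed to 718.1 to 719.2 CPM in RN7SK-KO libraries and 179.0 to 197.4 CPM in control libraries. GRP was at 0 in every library, and CALCA, INSM1 and NEUROD1 at 0 in the control libraries. Of 10 endothelial markers 4 were tested, 1 higher and 3 lower, with sums of 37.3 to 39.3 CPM in RN7SK-KO and 128.1 to 134.4 CPM in control. The higher one, EGFL7, had 33.5 CPM in RN7SK-KO and 18.2 CPM in control, so it made up most of the RN7SK-KO sum. TIE1 was at 0 in every library, and ERG and VWF at 0 in the control libraries. Of 6 basal cell markers 3 were tested, 1 higher and 1 lower, with sums of 2.85 to 3.52 CPM in RN7SK-KO and 43.2 to 48.4 CPM in control. KRT14 was at 0 in every library, and KRT5 at 0 in the control libraries. With only 1 tested basal marker lower, the lower sum in RN7SK-KO does not describe the basal list as a whole. Of 10 fibroblast and mural markers 4 were tested, 2 higher and 1 lower, with sums of 40.8 to 42.7 CPM in RN7SK-KO and 28.7 to 29.8 CPM in control. Whether other cell types had a part in the values of NOTCH3, NOTCH4, HEY1, HEYL and DLL3 was not tested.

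Of 8 secretory markers 2 were tested, both higher, with sums of 63.9 to 68.8 CPM in RN7SK-KO and 43.1 to 51.3 CPM in control and TFF3 at 0. Of 9 ciliated markers 7 were tested, 4 higher and 3 lower, with sums of 38.7 to 39.8 CPM in RN7SK-KO and 41.2 to 46.3 CPM in control. Of 10 alveolar markers 3 were tested, 1 higher, with sums of 83.7 to 96.0 CPM in RN7SK-KO and 82.4 to 88.8 CPM in control and SFTPA1 and SFTPB at 0. Of 9 haematopoietic markers 3 were tested, 2 higher, with sums of 57.7 to 62.4 CPM in RN7SK-KO and 37.0 to 41.0 CPM in control and CD3E at 0.

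Each Notch gene was also set beside up to 5 listed genes on either side of it on its chromosome. Of 77 tested neighbours, 25 were higher, 41 lower and 11 did not pass, so 85.7% passed, against 85% of all genes tested. NOTCH3, at 2.17 in log2 fold change, stood among 7 tested neighbours of which 0 were higher and 5 lower, at a median of -0.62. The neighbours that changed most there were ADGRE2 at -3.48 and SYDE1 at -1.53. JAG2 was the reverse, itself lower at -0.94 among 9 tested neighbours of which 7 were higher and 0 lower, at a median of 0.78. GPR132 at 3.51 and AHNAK2 at 1.89 had the largest values there. GPR132 had 1.29 ± 0.145 CPM in RN7SK-KO and 0.106 ± 0.00196 CPM in control (SD), with control below the filter's cutoff. It therefore entered the test only through the group where it was high.

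HEY1 was higher while 9 of its 10 neighbours were lower, at a median of -0.64, although ZNF704 was at 4.24 and PKIA at -3.82. DLL1 had 0 higher and 6 lower among 8 tested neighbours, with a median of -0.54 and PHF10 at -0.96 and PSMB1 at -0.77. HES4 stood with its neighbours in direction, since 5 of 7 were lower at a median of -1.01, with SAMD11 at 5.83 and PLEKHN1 at -1.32 as the widest. NOTCH2 did so too, with 5 of 6 tested neighbours lower at a median of -0.70, where PHGDH of serine synthesis was at 2.04 and NBPF26, of a multicopy family whose reads may be split, at -1.58.

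NOTCH1, with EGFL7 of the endothelial list among its neighbours, had 6 higher and 3 lower of 9, at a median of 0.30, and CCDC183 at 1.31 and C9orf163 at 1.03 changed most. Both lay near the filter's cutoff of 0.539 CPM. CCDC183 had 1.14 CPM in RN7SK-KO and 0.458 CPM in control, and C9orf163 had 0.879 CPM in RN7SK-KO and 0.421 CPM in control. JAG1 had 4 higher and 2 lower of 9, at a median of 0.10, with ANKEF1 at 1.66 and SLX4IP at 1.01. NRARP had 3 higher and 3 lower of 7, at a median of -0.03, with PNPLA7 at 2.21 and NSMF at -1.89. HES1 had 2 higher and 3 lower of 5, at a median of -0.48, with FGF12 at 3.37 and MB21D2 at -0.92.

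**Figure D5:**
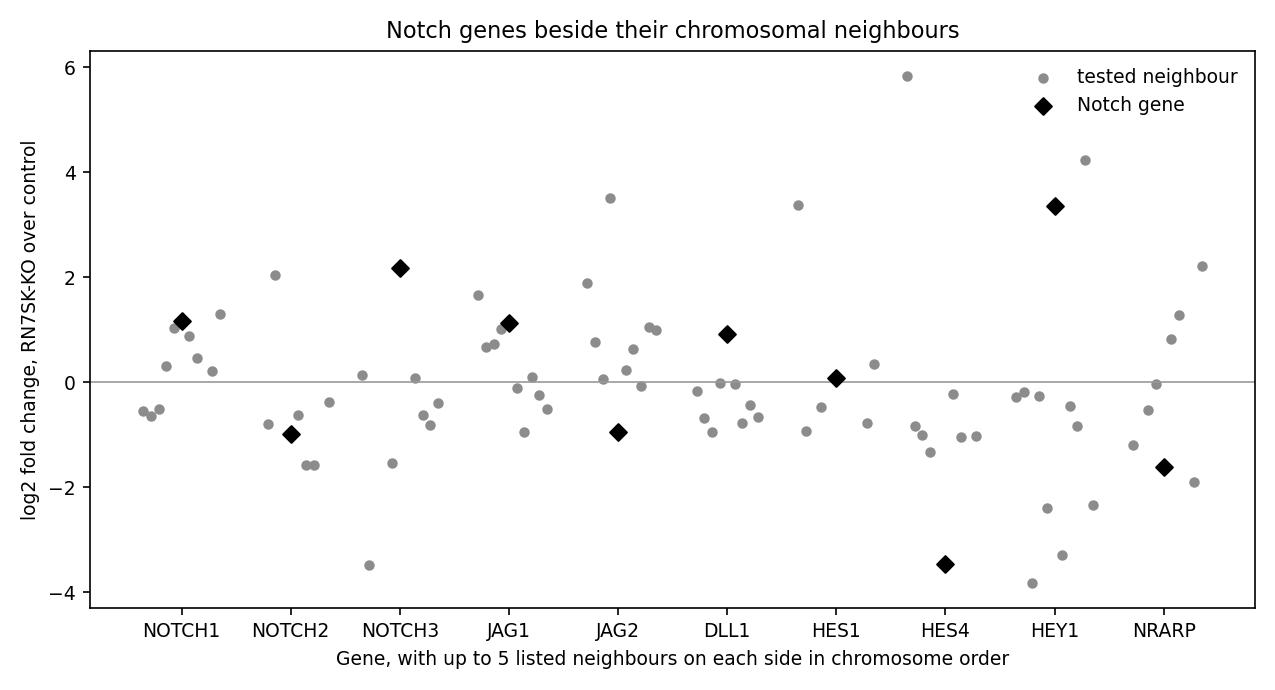
Log2 fold change, RN7SK-KO over control (n = 3 each), of each Notch gene (diamonds) and its tested neighbours among up to 5 listed genes on either side (points, in chromosome order). NOTCH3, DLL1 and HEY1 (higher) and JAG2 (lower) are opposite in sign to the median of their neighbours, as is HES1, which did not pass the test, while the other five share that sign.

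The genes whose pattern over the 6 libraries was most like that of NOTCH3 were PCDHA4, TTC39B and SYNPO2, with root mean square distances of 0.0703, 0.0861 and 0.11 in centred log2 CPM. For HES4 they were ZNF28, HOXB4 and ADGRE2, at 0.112, 0.113 and 0.137. Over 2 groups of 3 libraries, such likeness mostly records a fold change of similar size.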

How the data were processed

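TRIzol-extracted total RNA went into an mRNA library kit (per the labels). HISAT2 2.2.1.0, Trimmomatic 0.36 and FastQC 0.11.5, with build GRCh38, are listed in the submitters' processing notes without roles. No source used here gives the counter, annotation or strand setting. The authors deposited whole-number counts per gene, not normalized, and FPKM, scaled to gene length and depth, for each library.

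Counts were fitted over the whole table in R 4.3.3 with edgeR 4.0.16 (filterByExpr, TMM, glmQLFit robust, glmQLFTest; log2 fold changes are RN7SK-KO over control, SE is the log2 fold change over the square root of F), and p-values were Benjamini-Hochberg adjusted over 12929 genes. CPM were scaled by TMM factors. The procedure was tested on simulated data. Gene lengths were recovered from count over FPKM. Alternatives used DESeq2 1.42.0 and limma 3.58.1. FPKM sums, shares and count ratios were formed per library. Intervals cover counting error only, and totals of 16018260 to 19357144 counts set the precision. Symbols, coordinates, neighbours and promoters came from RefSeq GRCh38.p14, which had promoters for 8 of the 10 genes, all but DLL1 and HEY1. Exon overlaps came from GENCODE v29.

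The 10 genes, the pathway and marker lists and the rule for named genes (per pathway role, up to 3 genes with the smallest p plus 14 fixed genes; per Notch gene, the 2 neighbours of largest change; the 3 nearest patterns for NOTCH3 and HES4) were chosen with earlier results of these data known. Some genes that this rule or these lists include are not reported here.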

Additional observations from a re-analysis of the deposited data

How the results depend on the processing

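The direction and call of NOTCH1, NOTCH2, NOTCH3, JAG1, JAG2, HES4, HEY1 and NRARP held under every alternative that could test them. HEY1 passed the low-count filter only through the RN7SK-KO libraries, so its calls are given as a description. HEY1 and NRARP were not tested at a mean of at least 10 CPM. DLL1 kept its direction but missed the threshold without a filter (0.89), with DESeq2 (0.94), on log2(FPKM + 0.1) (0.50) and log2(FPKM + 1) (0.11), with gene lengths as an offset (0.72), with the replicate block (0.91, adjusted p = 0.0609) and against a 1.5-fold threshold (0.91); leaving out each library gave 0.71 to 1.38. HES1 turned sign without a call, to -0.0049 on log2(FPKM + 0.1), -0.0034 on log2(FPKM + 1) and -0.028 with the offset. HES4 ranged down in size to -2.004 and HEY1 to 0.65 on log2(FPKM + 1). With a mean of at least 10 CPM, 7 of the 10 genes were tested, 3 higher and 3 lower, against 8347 of 9756 genes called in the whole table. Against a 1.5-fold threshold, 5967 of all genes passed in place of 10992 (3159 higher, 2808 lower), and 32 pathway genes in place of 61 (19 higher, 13 lower). The cause of these shifts was not tested. Leaving out each library gave 1.08 to 1.28 for NOTCH1, -1.07 to -0.93 for NOTCH2, 2.02 to 2.36 for NOTCH3, 1.08 to 1.15 for JAG1, -0.96 to -0.90 for JAG2, 0.012 to 0.20 for HES1, -3.66 to -3.32 for HES4, 2.94 to 4.30 for HEY1 and -1.74 to -1.44 for NRARP, with 8 to 9 of the 10 called. Same-numbered libraries of the groups did not deviate together (correlations of 0.018, -0.025 and -0.0078), so the numbers were not taken as pairs; the replicate block called 10910 genes, and 8 of the 10. Low counts limit DLL1, HEY1 and NRARP.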
